A study of Mus musculus with 12 samples.

Results

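The response of B16F10 melanoma cells to SX-682, an antagonist of the chemokine receptors CXCR1 and CXCR2, was compared with that of B16F0 cells. The comparison used the 8 B16 libraries of the 12 libraries in the series, with 2 libraries each of untreated B16F0, B16F0 with SX-682, untreated B16F10 and B16F10 with SX-682. For every gene, the log2 change with SX-682 in B16F0 was subtracted from the log2 change in B16F10. This difference of responses is given throughout in log2 units, so a difference of 1 means that the ratio of treated to untreated cells was 2 times larger in B16F10. A positive difference means a larger rise or a smaller fall in B16F10, and a negative one a smaller rise or a larger fall.

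Both lines are cultured mouse melanoma cells of C57BL/6 origin, and B16F10 was derived from B16F0 by repeated selection for lung colonisation. The labels name only the line and whether SX-682 was given; the dose and duration for these cultures are not given in the sources used here, and the controls are labelled as having no treatment. Nothing says that the replicates are separate cultures, so p-values measure the spread between these libraries, which may be technical. Each side of the comparison is 1 cell line, so a difference between these lines cannot be told apart from a difference between the cultures used. In RNA from whole cultures, fewer cells of a kind and less RNA per cell cannot be told apart either.

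CXCR2 is a receptor for neutrophil-attracting CXC chemokines, and melanoma cells can make both the receptor and its ligands. Cells short of amino acids, or under stress in the endoplasmic reticulum, raise the translation of the factor ATF4, which with its target CHOP (Ddit3) drives genes for amino acid synthesis, amino acid uptake and cell death. Pigment cells depend on MITF, a factor that drives the melanin genes and also cell cycle genes.

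Total counts on genes lay between 48876982 and 75138976 per library, and the closest library by rank correlation was the replicate in 8 of 8 cases. Melanocyte markers summed to 9640 to 15600 CPM (counts scaled to a common library size), while 6 immune markers summed to at most 0.589 CPM (Cd3e and Itgam at 0), 4 endothelial markers to at most 0.164 CPM outside treated B16F0 (0.602 to 1.07 CPM there) and 5 epithelial markers to at most 1.67 CPM. Fibroblast markers summed to 1.22 to 8.19 CPM, nearly all of it Pdgfra. The receptors themselves were almost without reads. Cxcr2 had 1 count in 1 library of untreated B16F0 and 0 in the other 7, and Cxcr1 had 5 counts in 1 library of B16F0 with SX-682 and 1 count in 1 library of B16F10 with SX-682. A count of 0 allows up to 3 counts in a library, or 0.0387 to 0.0604 CPM, so a difference of responses could not be measured for either receptor at this depth.

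The lines responded differently in 5651 of 16142 genes tested, or 35%, by the quasi-likelihood test in edgeR with an adjusted p under 0.05. Genes are called higher below where this difference was positive and lower where it was negative, whatever the level of the gene in each line. The difference was positive in 2666 genes (16.5% of genes tested) and negative in 2985 (18.5%). These shares are the background for the counts given for gene lists below. Replicates of a group differed little, with a biological coefficient of variation of 2.671%, and most of the differences called were small. Their absolute size had quartiles of 0.221, 0.328 and 0.518, and 518 reached 1. A second test asked whether the difference exceeded 0.5 in size. It called 388 genes (2.4%), 196 of them higher in B16F10 (1.21%) and 192 lower (1.19%). Each treated library was also set against each untreated one of its line. Every B16F10 change lay on the same side of every B16F0 change in 386 of these 388 genes. It did so in 8610 of all genes tested (53.3%). With library totals as the only scaling, 57.9% of the called genes were higher in B16F10 against 47.2% with TMM scaling. Of the genes called beyond 0.5, 59.4% were higher against 50.5%. The balance of higher and lower calls thus depends on the scaling, beyond 0.5 too.

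**Figure D1:**
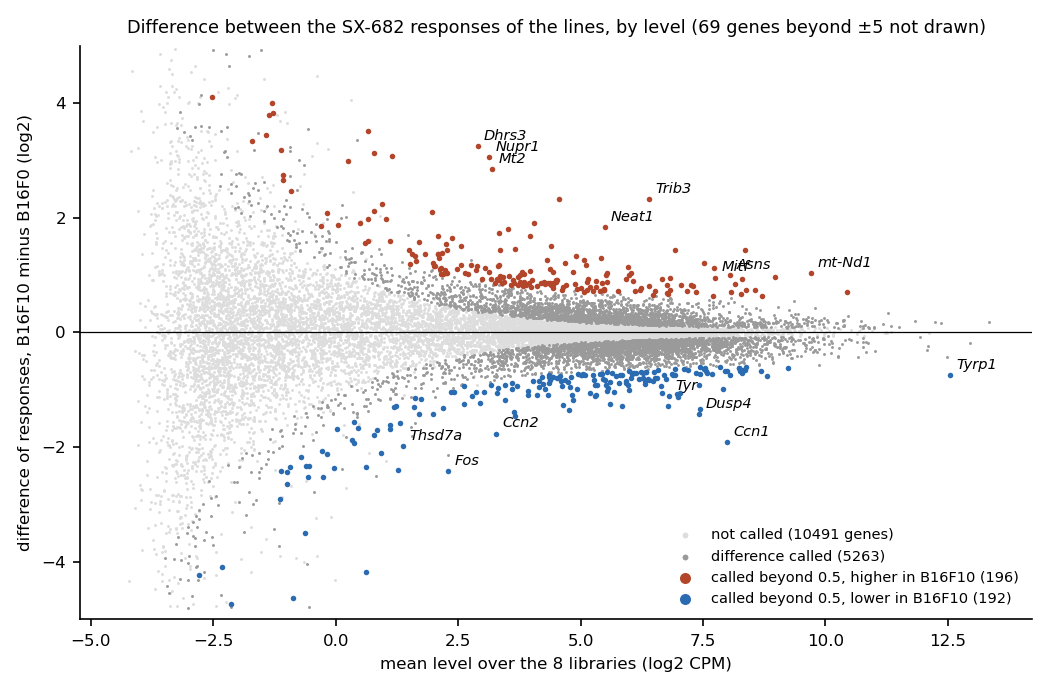
Difference of responses (B16F10 minus B16F0, log2) of each gene tested against its mean level over the 8 libraries (log2 CPM). The 196 genes called higher beyond 0.5 are red and the 192 called lower are blue; differences of poorly expressed genes spread widely, and 69 genes beyond 5 in size lie outside the axis.

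Among the called genes, the fitted changes pointed in opposite directions in the lines in 1946 (34.4%). In 1136 both changes were rises, with the larger rise in B16F10 (20.1%), and in 1274 both were falls, with the larger fall in B16F10 (22.5%). Rises were larger in B16F0 in 669 genes (11.8%) and falls in 626 (11.1%). Beyond 0.5, opposite directions made up 189 of the 388 genes (48.7%). These classes rest on the signs of the fitted changes and not on a test of each response. The 95% interval of the difference lay within 0.25 on either side of 0 in 3331 genes (20.6%), so for these a difference larger than that was not seen. Of these 3331 genes, 551 were also among the genes called.

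The largest named differences in favour of B16F10 were those of Dhrs3, Tmem117, Nupr1 and Mt2. Dhrs3 encodes a reductase that converts retinal to retinol (chromosome 4, 144892827 to 144928209, GRCm38, plus strand). It was at 13 and 11.7 CPM in untreated B16F0 and 4.1 and 3.14 CPM with SX-682, against 5.47 and 4.4 CPM in untreated B16F10 and 13.9 and 13.9 CPM with SX-682. The libraries of the lines thus changed places, and the difference was 3.25 (SE 0.16, adjusted p = 6.83e-16). Mt2, a zinc-binding metallothionein, stood at 4.35 and 4.26 CPM in untreated B16F0 and 5.55 and 5.08 CPM with SX-682, while B16F10 held 5.92 and 5.64 CPM untreated and 48.3 and 54.6 CPM with SX-682. The untreated levels of Mt2 lay close together and only the treated B16F10 libraries were high, a difference of 2.84 (SE 0.13, adjusted p = 1.36e-16). The neighbouring Mt1, chosen after its values were seen, differed by 1.44 (SE 0.034, adjusted p = 1.97e-23). In GENCODE M21, 73.5% of the exonic bases of Mt2 overlap a gene on the opposite strand, and whether the counting used strand is not given in the sources used here.

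Neat1, the long noncoding RNA that builds nuclear paraspeckles, was at 68.8 and 66.3 CPM in untreated B16F0 and 59.6 and 54.7 CPM with SX-682, and at 18.8 and 18.9 CPM in untreated B16F10 and 58.2 and 55.2 CPM with SX-682. The low libraries were the untreated B16F10 ones, and with SX-682 the lines were alike, a difference of 1.83 (SE 0.067, adjusted p = 7.2e-19). Slc16a6, a monocarboxylate transporter with 21.5% of its exonic bases overlapping a gene on the opposite strand, differed by 1.80 (SE 0.13), and Col15a1, a basement membrane collagen, by 1.73 (SE 0.14). Tmem117 differed by 3.07 (SE 0.41) and Cabp1 by 1.98 (SE 0.38), but both were at or under 0.228 CPM in untreated B16F10. Ddah2, which breaks down an inhibitor of nitric oxide synthesis, differed by 2.10 (SE 0.46) with B16F0 levels of 0.602 CPM or less against 56.2 to 60.3 CPM in B16F10. Such values rest on few reads in 1 line.

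At the other end, Fos, Ccn1 and Ccn2 had large differences in favour of B16F0 and are described with their pathways below. Adam12, a membrane metalloprotease, was at 31.2 and 29.9 CPM in untreated B16F0 and 28.9 and 27.0 CPM with SX-682, and at 43.9 and 41.2 CPM in untreated B16F10 and 14 and 16.5 CPM with SX-682. Its levels were nearly flat in B16F0, and the difference was -1.36 (SE 0.088, adjusted p = 3.78e-13). Gpc6, a cell surface heparan sulfate proteoglycan, differed by -1.46 (SE 0.11) and Col10a1, a short-chain collagen, by -1.62 (SE 0.31), both with changes in opposite directions. The protocadherin Pcdh17 differed by -1.43 (SE 0.27). Thsd7a (-1.99, SE 0.43) had at most 0.652 CPM in B16F10, and Dtx4 (-1.59, SE 0.40) at most 0.602 CPM in B16F0. Without replicate 1 of untreated B16F0 the difference of Dtx4 was -0.88 and was no longer called (adjusted p = 0.0797), and without replicate 2 it was -2.77. Opposite directions were also seen for Ltbp1, which binds latent TGF-beta (1.54, SE 0.18), and for Kazald1 (1.44, SE 0.24).

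Stress genes of the ATF4 and CHOP pathway were mostly called higher. Of 21 listed factors and effectors, 14 were called higher in B16F10 and 3 lower, with a median difference of 0.434 against 0.00325 over all genes tested. Trib3, a pseudokinase induced by CHOP (chromosome 2, 152337422 to 152344032, minus strand), was at 50.9 and 50 CPM in untreated B16F0 and 311 and 309 CPM with SX-682. It was at 10.8 and 9.63 CPM in untreated B16F10 and 314 and 312 CPM with SX-682. The treated lines were at almost the same level and the untreated lines were apart, which gave a difference of 2.32 (SE 0.055, adjusted p = 1.25e-23), or a 4.99 times larger fold change in B16F10.

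Nupr1, a small stress-induced chromatin protein (chromosome 7, 126623249 to 126630861, minus strand), was at 7.53 and 8.02 CPM in untreated B16F0 and 35.2 and 36.8 CPM with SX-682. In B16F10 it was at 0.722 and 0.728 CPM untreated and 25.9 and 30.2 CPM with SX-682. The difference of 3.06 (SE 0.19, adjusted p = 3.16e-15) again came with a low untreated level in B16F10. Chac1, which degrades glutathione, was at 17.2 and 17.4 CPM in untreated B16F0 and 59.7 and 59.1 CPM with SX-682, and at 3.98 and 4.46 CPM in untreated B16F10 and 73.0 and 71.8 CPM with SX-682. Here the treated B16F10 libraries also passed those of B16F0, and the difference was 2.32 (SE 0.087, adjusted p = 6.31e-19). Ddit3, which encodes CHOP, differed by 1.43 (SE 0.052) and Ddit4, an inhibitor of mTORC1, by 1.11 (SE 0.039). Atf4 itself differed by 0.41 (SE 0.033) from equal untreated levels, 216 and 222 CPM in B16F0 and 218 and 218 CPM in B16F10, to 447 and 445 CPM in B16F0 and 590 and 589 CPM in B16F10. Among the kinases that phosphorylate eIF2alpha, Eif2ak3 (PERK) differed by 0.38, while Eif2ak4 (GCN2, 0.0037), Eif2ak1 (-0.03) and Eif2ak2 (0.13) were not called.

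The list did not move as a block. Gdf15, a secreted stress cytokine that is also a p53 target, was at 2.22 and 2.12 CPM in untreated B16F0 and 11.4 and 11.9 CPM with SX-682, and at 21 and 19.4 CPM in untreated B16F10 and 57.0 and 55.3 CPM with SX-682. Its difference was -0.94 (SE 0.12, adjusted p = 8.53e-08). Cebpb differed by -0.51 (SE 0.068) and Atf5 by -0.17. The 5 members called higher beyond 0.5, Nupr1, Trib3, Chac1, Ddit3 and Ddit4, were all lower in untreated B16F10 than in untreated B16F0. The untreated levels are part of the difference itself, so this is a description of the calls and not a separate result. Over the 21 members, the absolute gap between the lines was smaller with SX-682 than without it in 13 (61.9%), with a median of 0.954 untreated and 0.537 treated. Over all genes tested it was smaller in 47.5%, and over the 388 genes called beyond 0.5 in 42.5%. Over the 196 of these called higher it was smaller in 41.8%.

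**Figure D2:**
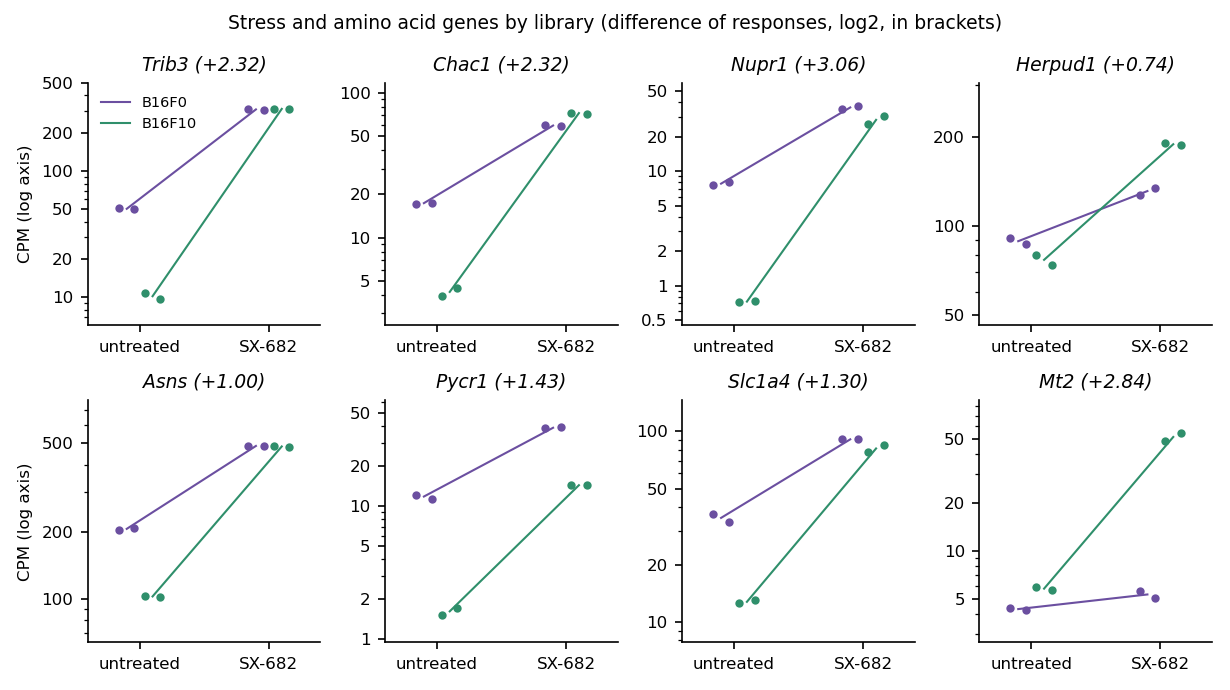
Levels of 8 stress and amino acid genes in the 8 libraries (CPM on a log axis), untreated and with SX-682; points are libraries, lines join the group means, and the number after each symbol is the difference of responses (log2). For Trib3 and Asns the lines meet with SX-682 after standing apart untreated, whereas for Mt2 they part.

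Enzymes that make amino acids and one-carbon units were split. Of 18 listed, 10 were called higher in B16F10 and 7 lower, and 6 were called higher beyond 0.5. Asns, asparagine synthetase, was at 204 and 208 CPM in untreated B16F0 and 484 and 486 CPM with SX-682, and at 103 and 102 CPM in untreated B16F10 and 484 and 481 CPM with SX-682. The treated levels could not be told apart, and the difference was 0.997 (SE 0.034, adjusted p = 2.1e-19). Pycr1, the last step of proline synthesis in mitochondria, differed by 1.43 (SE 0.13), Pck2, the mitochondrial phosphoenolpyruvate carboxykinase, by 0.95 (SE 0.044), Psph by 0.72, Aldh18a1 by 0.71 and Mthfd2 by 0.67. The cytosolic folate enzymes Mthfd1 (-0.32) and Shmt1 (-0.31) were called lower. The gap between the lines was smaller with SX-682 in 14 of the 18 (77.8%), with a median of 0.593 untreated and 0.237 treated.

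Amino acid transporters were called higher in 8 of 14 tested and lower in 3. Slc1a4, which carries alanine, serine and cysteine, was at 36.6 and 33.6 CPM in untreated B16F0 and 90.7 and 90.4 CPM with SX-682. In B16F10 it was at 12.5 and 13 CPM untreated and 77.9 and 84.3 CPM with SX-682, a difference of 1.30 (SE 0.071, adjusted p = 7.42e-15). The glycine transporter Slc6a9 differed by 0.86 (SE 0.095), with 27.8% of its exonic bases overlapping a gene on the opposite strand. Slc7a11 (0.63) and its partner chain Slc3a2 (0.63), which together import cystine, were also called higher. Slc7a6, which exchanges basic for neutral amino acids, went the other way (-0.74, SE 0.056). Cytosolic aminoacyl-tRNA synthetases were called higher in 10 of 20 and lower in 3, with small sizes, from Cars (0.41) and Gars (0.40) down to Rars (-0.63, SE 0.039).

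The promoters of these genes were read in the 300-base windows of RefSeq on GRCm38.p6, 250 bases before and 50 after each annotated start, where 11109 of the tested genes had at least 1 window. The letters TGATGCAA, on either strand, are the core of the element bound by C/EBP and ATF factors together. They were held by 5 of the 142 genes called higher beyond 0.5 with a window (3.52%), by 0 of the 147 called lower and by 78 of all 11109 (0.702%). The 5 were Chac1, Herpud1, Nupr1, Pycr1 and Slc1a4. Of the 19 genes of the ATF4 and CHOP list with a window, 5 held it (26.3%), among them Fgf21, which was not called (adjusted p = 0.409). The windows of Trib3, Ddit3 and Asns did not hold these letters. The stretches around the match are shown for the genes described above, 5′ to 3′ on the strand of the gene, with the match in capitals and up to 50 bases on either side, ending no later than 8 bases after the start; TTGCATCA is the same element read from the other strand.
Nupr1 (chr7:126625523-126625630, minus strand): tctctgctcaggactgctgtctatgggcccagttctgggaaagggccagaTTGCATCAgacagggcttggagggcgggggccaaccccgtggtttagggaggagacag
Chac1 (chr2:119350999-119351106, plus strand): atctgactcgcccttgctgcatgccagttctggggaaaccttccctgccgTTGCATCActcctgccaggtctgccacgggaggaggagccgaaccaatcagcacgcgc
Pycr1 (chr11:120643794-120643901, minus strand): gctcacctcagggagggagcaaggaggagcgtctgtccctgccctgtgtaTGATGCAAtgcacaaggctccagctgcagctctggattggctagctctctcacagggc
Slc1a4 (chr11:20332706-20332767, minus strand): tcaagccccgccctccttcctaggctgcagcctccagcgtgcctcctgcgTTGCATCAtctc
The match began 110 bases before the start of Nupr1, 193 before that of Chac1, 103 before that of Pycr1 and 4 before that of Slc1a4. A match is a description of letters and does not show that a factor was bound.

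Chaperones of the endoplasmic reticulum did not follow the ATF4 genes. Of 21 genes of the unfolded protein response, 6 were called higher and 9 lower (median -0.0872), and Hspa5, the master chaperone BiP, was not called (0.063). Herpud1, which works in the disposal of misfolded proteins, was the exception in size at 0.74 (SE 0.051, adjusted p = 1.38e-12), with 91.1 and 86.8 CPM in untreated B16F0, 128 and 135 CPM in B16F0 with SX-682, 79.9 and 73.9 CPM in untreated B16F10 and 191 and 188 CPM in B16F10 with SX-682. Calr (-0.43) and Hyou1 (-0.45) were called lower. In the cytosolic heat shock list, 4 of 15 tested were called higher and 7 lower. Its differences ranged from -0.36 to 1.9, with a median of -0.0874. The inducible chaperone Hspa1b differed by 1.90 (SE 0.10), although reads of its near-identical copy Hspa1a may be split between them, and Hspb1 differed by 0.85 (SE 0.099). In a list of the antioxidant factor NRF2, Keap1 and NRF2 targets, 3 of 19 were called higher and 7 lower. Over all genes tested, 16.5% were called higher and 18.5% lower. The furthest of the 7 was Txnrd1 at -0.42.

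Cell cycle genes parted by phase. In a list of 28 mitosis genes, 24 were called higher in B16F10 and 0 lower, with a median of 0.358. In a list of 35 genes of DNA replication and the G1/S transition, 24 were called lower and 3 higher, with a median of -0.27. Across the alternative settings, the threshold of 0.01 not counted, the counts were between 23 and 24 higher for mitosis and between 21 and 24 lower for replication. Cdc25c, the phosphatase that opens entry into mitosis, was at 19.8 and 22.4 CPM in untreated B16F0 and 20.4 and 18.4 CPM with SX-682, and at 19.2 and 18.7 CPM in untreated B16F10 and 32.8 and 33.4 CPM with SX-682. Only the treated B16F10 libraries were high, and the difference was 0.92 (SE 0.092, adjusted p = 3.05e-09). Of the exonic bases of Cdc25c, 12.7% overlap a gene on the opposite strand. Ccnb2, a mitotic cyclin, was at 126 and 130 CPM in untreated B16F0 and 95.7 and 94.0 CPM with SX-682, and at 96.6 and 98.4 CPM in untreated B16F10 and 116 and 117 CPM with SX-682. The changes were in opposite directions, with a difference of 0.68 (SE 0.044, adjusted p = 4.08e-13). Cdc25b differed by 0.59, Birc5 (survivin) by 0.55, Plk1 by 0.36 and Cdk1 by 0.19. The proliferation marker Mki67 was between 458 and 482 CPM in the 8 libraries, and its difference was -0.015 (SE 0.034, adjusted p = 0.795).

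On the replication side, Cdc6, which loads the helicase at origins (chromosome 11, 98907801 to 98923940, plus strand), was at 46.5 and 45.9 CPM in untreated B16F0 and 24.3 and 25.7 CPM with SX-682. It was at 52.2 and 51.8 CPM in untreated B16F10 and 14.3 and 14.1 CPM with SX-682, the lowest of the 4 groups. The difference was -0.98 (SE 0.072, adjusted p = 5.05e-12). E2f2, a factor that drives replication genes, differed by -1.10 (SE 0.10) and Rrm2, a subunit of ribonucleotide reductase, by -0.67 (SE 0.037). The helicase subunits Mcm2 to Mcm7 were each called lower, between -0.22 (Mcm5) and -0.56 (Mcm6), and so were Ccne1 (-0.64), Pcna (-0.41) and Ccnd1 (-0.33). The 3 called higher were subunits of the clamp loader, Rfc4 (0.48), Rfc2 (0.20) and Rfc3 (0.19), the last just under the threshold (adjusted p = 0.0493). The 3 became 2 in DESeq2, with RLE scaling and without the 50 highest genes. Of the CDK inhibitors, 2 of 5 tested were called lower, Cdkn1a (-0.45) and Cdkn2c (-0.15), against 18.5% of all genes tested.

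The letters TTTCCCGC, an E2F site on either strand, were in the windows of 6 of 26 listed replication genes (23.1%) and of 252 of the 11109 genes tested with a window (2.27%). Among genes called beyond 0.5 they were in 2 of 142 higher and 5 of 147 lower (3.4%). The window of Cdc6 is shown since it had the largest difference of the 6, with the match, read from the other strand, in capitals; it began 138 bases before the start.
Cdc6 (chr11:98907963-98908070, plus strand): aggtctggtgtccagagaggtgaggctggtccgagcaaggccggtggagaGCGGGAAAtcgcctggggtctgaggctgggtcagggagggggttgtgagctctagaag

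**Figure D3:**
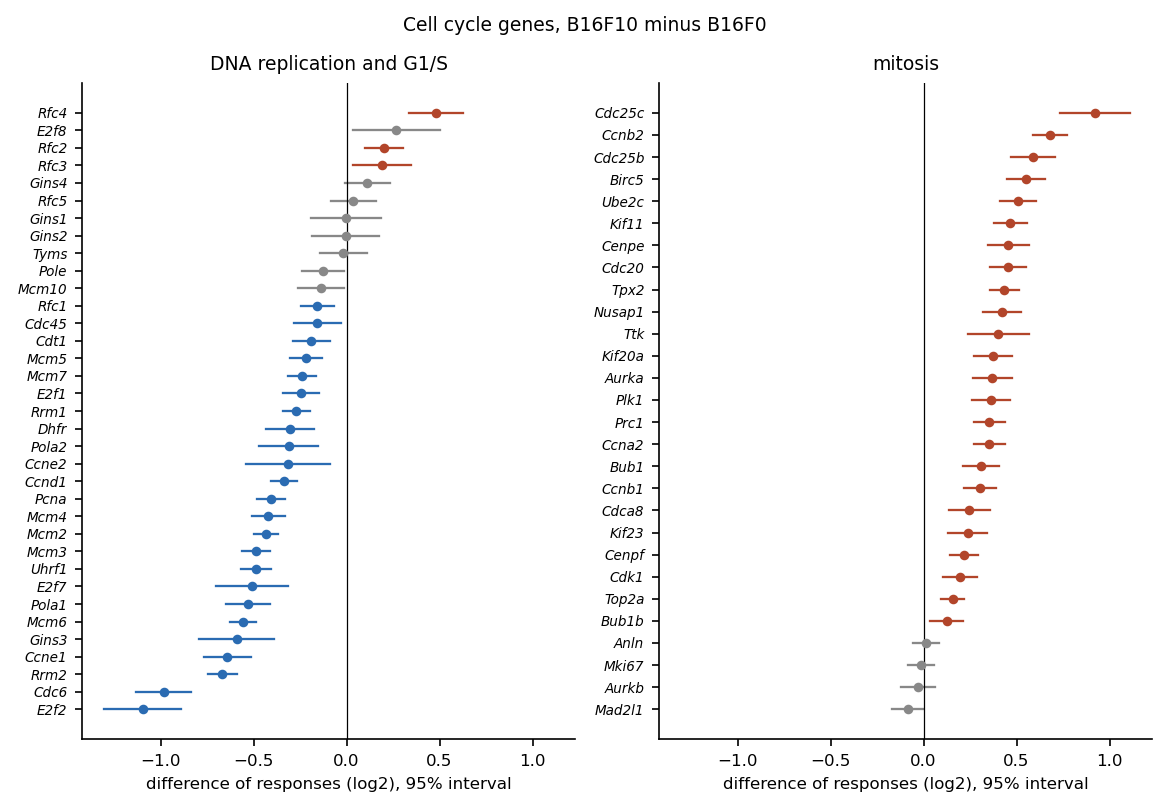
Difference of responses (log2) with its 95% interval for the 35 listed genes of DNA replication and G1/S (left) and the 28 of mitosis (right), red where called higher in B16F10, blue where called lower and grey where not called. Most replication genes lie left of 0 and 24 mitosis genes lie right of it.

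Genes of a list of p53 itself (Trp53) and its targets were mostly called lower. Of 17 listed, 11 were called lower in B16F10 and 1 higher, with a median of -0.419 (-0.252 without replicate 2 of untreated B16F10). Plk2, a stress kinase, was at 26.6 and 25.3 CPM in untreated B16F0 and 84.7 and 89.9 CPM with SX-682, and at 40.9 and 42.6 CPM in untreated B16F10 and 60.3 and 57.2 CPM with SX-682. The treated B16F0 libraries were the highest, and the difference was -1.26 (SE 0.064, adjusted p = 1.79e-15). Aen, a nuclease, differed by -0.69 (SE 0.05) and the receptor Eda2r by -1.14 (SE 0.24). Cdkn1a, which encodes p21, was at 717 and 673 CPM in untreated B16F0 and 966 and 933 CPM with SX-682, against 482 and 480 CPM in untreated B16F10 and 483 and 482 CPM with SX-682. The member called higher was Sesn1 (0.60), and Mdm2, the p53 antagonist, was not called (-0.054, SE 0.036).

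In the BCL2 family, which sets the threshold for apoptosis, 3 of 14 tested were called higher and 5 lower. Over all genes tested, 16.5% were called higher and 18.5% lower. The 5 became 3 without replicate 2 of untreated B16F10, without replicate 2 of B16F10 with SX-682, with library totals only and in DESeq2. The 3 called higher were promoters of death. Bmf was at 23.8 and 20.7 CPM in untreated B16F0 and 26.0 and 24.6 CPM with SX-682, and at 15.9 and 18.5 CPM in untreated B16F10 and 44.7 and 45.5 CPM with SX-682, a difference of 1.20 (SE 0.094, adjusted p = 1.92e-11). Bcl2l11, or BIM, differed by 0.65 (SE 0.12) and Bok by 0.82 (SE 0.19). The survival genes Mcl1 (-0.64), Bcl2l1 (-0.37) and Bcl2 (-0.32) were called lower, together with Bid (-0.18) and Bak1 (-0.14), which promote death. Bbc3, or PUMA, went from 18.3 and 16.8 to 72.4 and 80.8 CPM in B16F0 and from 15.1 and 15.2 to 63.9 and 63.1 CPM in B16F10, with a difference of -0.052 (SE 0.078).

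The genes that build ribosomes and the genes of the ribosome itself had differences of opposite sign. Of 28 ribosome biogenesis genes, 23 were called lower in B16F10 and 1 higher, with a median of -0.277. Rrs1, an assembly factor, was at 86.1 and 88.6 CPM in untreated B16F0 and 88.1 and 89.9 CPM with SX-682, and at 133 and 135 CPM in untreated B16F10 and 77.3 and 78.5 CPM with SX-682. Its level was flat in B16F0, and the difference was -0.81 (SE 0.046, adjusted p = 2.86e-14). Polr1a, the largest subunit of RNA polymerase I, differed by -0.72 (SE 0.04), Utp20 by -0.71 and Nolc1 by -0.66, and Myc, a factor that drives these genes, by -0.39 (SE 0.054). Of 75 cytosolic ribosomal proteins, 55 were called higher and 1 lower, but the differences were small, with a median of 0.132 and none beyond 0.5. Between 39 and 71 were called higher across the alternative settings, again without the threshold of 0.01. These genes are short, with a median length of 1830 bases, and short genes as a group leaned the same way. All genes tested were ranked by length into 10 bins. The median difference was 0.0892 in the shortest bin and -0.0905 in the longest. In the longest bin 34.2% were called lower, against 18.5% of all genes tested. The SR splicing, matrix and mTOR lists below held long genes, with median lengths of 6371, 6943 and 9247 bases. The part of length in these results was not tested. The 1 ribosomal protein called lower, Rps10 (-1.15, SE 0.28), was counted at 1.02 to 5.0 CPM, where Rps14 was at 1130 to 1900 CPM. Rps10 has near-identical copies between which reads can be split, and 20.6% of its exonic bases overlap a gene on the same strand. Its value is therefore uncertain.

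Genes of the mitochondrial genome were called higher in 11 of 13 and lower in 1, with a median of 0.76. DESeq2 called 7 of the 13 higher, and edgeR called 8 without replicate 2 of untreated B16F10. mt-Nd1, a subunit of complex I, was at 726 and 753 CPM in untreated B16F0 and 389 and 406 CPM with SX-682, and at 1270 and 1220 CPM in untreated B16F10 and 1360 and 1350 CPM with SX-682. The low libraries were those of treated B16F0, and the difference was 1.03 (SE 0.032, adjusted p = 3.24e-20). mt-Nd2 differed by 0.97 (SE 0.038), mt-Nd4 by 0.74 and mt-Cytb by 0.70, while mt-Co1 differed by -0.24 (SE 0.023). The values of mt-Atp6 (1.45) and mt-Atp8 (2.02), whose genes overlap, depended on replicate 1 of untreated B16F0, where mt-Atp6 was at 30.2 CPM against 12.6 CPM in the other replicate. Without that library, mt-Atp6 differed by 0.69 and was still called, and mt-Atp8 differed by 0.31 and was not (adjusted p = 0.726). The mitochondrially encoded genes are short too, with a median length of 784 bases. All mitochondrial genes together took 0.7559% to 1.242% of the counts.

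Splicing factors of the SR family and their kinases were called lower in 11 of 18 and higher in 0, with a median of -0.17. The 11 became 10 in DESeq2 and 8 with library totals only. Their median length was 6371 bases. In the length bin of 5614 to 6962 bases, 24.5% of the genes tested were called lower. Tra2a, a splicing activator, was at 118 and 119 CPM in untreated B16F0 and 97.3 and 97.2 CPM with SX-682, and at 157 and 158 CPM in untreated B16F10 and 73.2 and 73.5 CPM with SX-682, a difference of -0.81 (SE 0.043, adjusted p = 4.84e-15). Srsf5 differed by -0.55 (SE 0.047). Srsf1 responded alike, from 265 and 273 to 99.3 and 95.5 CPM in B16F0 and from 335 and 337 to 120 and 120 CPM in B16F10 (-0.02, SE 0.039). In the methionine cycle and DNA methylation list, 3 of 18 were called higher and 7 lower. Mat2a, which makes the methyl donor S-adenosylmethionine, went from 174 and 176 to 44.6 and 43.1 CPM in B16F0 and from 190 and 197 to 26.8 and 27.0 CPM in B16F10. The difference was -0.85 (SE 0.05, adjusted p = 4.2e-14), and 11.3% of its exonic bases overlap a gene on the opposite strand. The methyltransferases Dnmt1 (-0.38) and Dnmt3b (-0.68) were called lower, and without replicate 2 of untreated B16F10 Dnmt3b was not (adjusted p = 0.053).

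**Figure D4:**
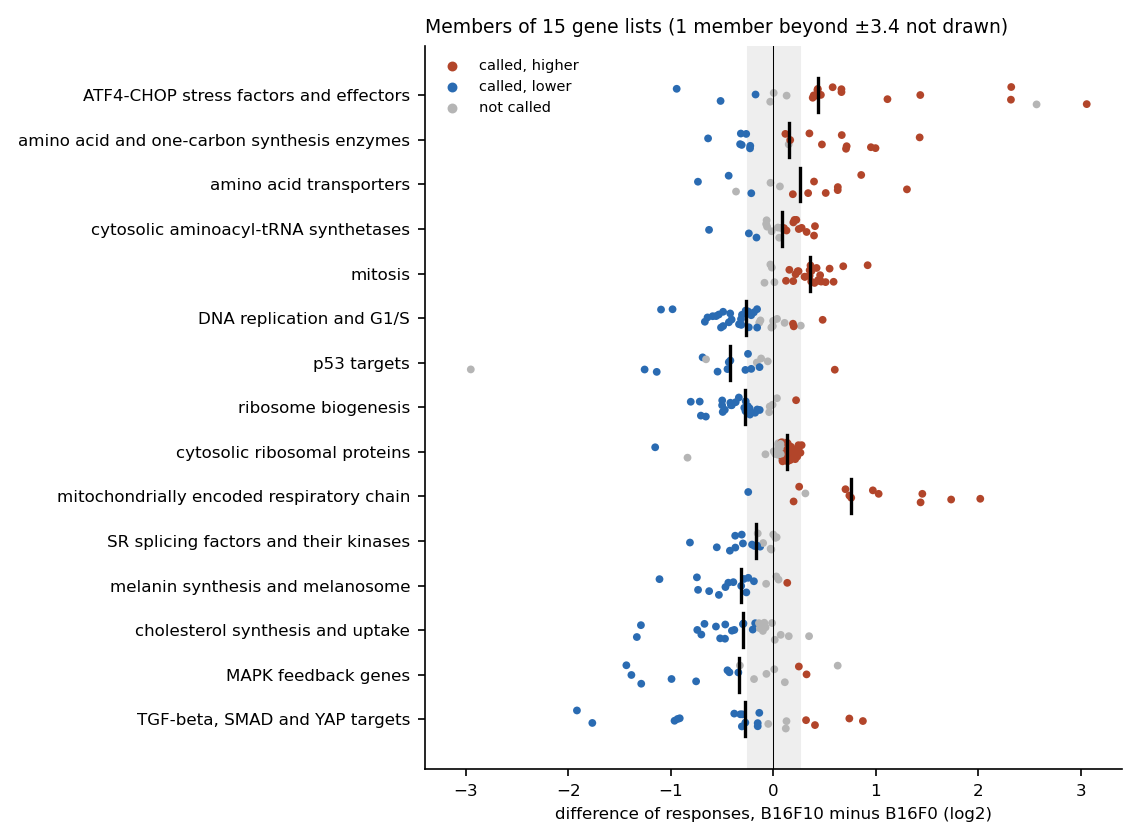
Difference of responses (log2) of every tested member of 15 gene lists, red where called higher in B16F10, blue where called lower and grey where not called; black bars are list medians and the grey band is the interquartile range of all genes tested. Mitosis genes lie to the right and replication, ribosome biogenesis, melanin and cholesterol genes to the left; 1 member, Ankrd1, lies outside the axis.

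Pigment genes were mostly called lower, and Mitf higher. Of 17 melanin and melanosome genes, 13 were called lower and 1 higher, with a median of -0.313. Tyr, tyrosinase, the rate-limiting enzyme of melanin synthesis (chromosome 7, 87424771 to 87493512, minus strand), was at 499 and 495 CPM in untreated B16F0 and 292 and 268 CPM with SX-682. In B16F10 it was at 68.3 and 63.8 CPM untreated and 17.6 and 16.9 CPM with SX-682, a difference of -1.11 (SE 0.057, adjusted p = 1.97e-15). Tyrp1, a further enzyme of the pathway, was at 6200 and 6230 CPM in untreated B16F0 and 5700 and 5650 CPM with SX-682, and at 8120 and 8100 CPM in untreated B16F10 and 4400 and 4440 CPM with SX-682. B16F10 was the higher line untreated and the lower one with SX-682, and the difference was -0.75 (SE 0.019, adjusted p = 2.59e-22). Mc1r, the melanocortin receptor, differed by -0.73 (SE 0.037, 17.9% of exonic bases overlapping a gene on the opposite strand), Mlana by -0.63 and Dct by -0.44. The 1 called higher was Mlph, a linker in melanosome transport (0.14).

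Mitf (chromosome 6, 97807052 to 98021349, plus strand) was at 358 and 349 CPM in untreated B16F0 and 84.1 and 79.9 CPM with SX-682. It was at 408 and 408 CPM in untreated B16F10 and 180 and 186 CPM with SX-682. The treated B16F0 libraries were the lowest, and the difference was 0.95 (SE 0.039, adjusted p = 1.43e-17), opposite in sign to its targets Tyr and Tyrp1. Pax3, a factor that drives Mitf, differed by -0.62 (SE 0.036), and Sox10, its partner in doing so, by 0.03 (SE 0.036, adjusted p = 0.58), with a 95% interval within 0.25 on either side of 0. In the list of lineage and epithelial-mesenchymal transition factors, 2 of 16 tested were called higher, Mitf and Sox9 (0.88, SE 0.15), and 4 lower, Hmga2, Pax3, Tfe3 (-0.40) and Tfap2a (-0.21).

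The M-box core TCATGTG, the site through which MITF is known to drive pigment genes, was searched for on both strands. It lay in the windows of 6 of 12 melanin genes (50%), of 308 of all 11109 genes (2.77%), of 11 of the 147 genes called lower beyond 0.5 (7.48%) and of 7 of the 142 called higher (4.93%). The 6 were Dct, Mc1r, Slc24a5, Trpm1, Tyr and Tyrp1, and 5 of them were called lower. The windows of the enzymes with the largest differences are shown with the match in capitals, together with the Mitf window that held the cyclic AMP response element TGACGTCA.
Tyr (chr7:87493505-87493584, minus strand): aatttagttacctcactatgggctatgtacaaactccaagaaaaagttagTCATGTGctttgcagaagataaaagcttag
Tyrp1 (chr4:80834116-80834220, plus strand): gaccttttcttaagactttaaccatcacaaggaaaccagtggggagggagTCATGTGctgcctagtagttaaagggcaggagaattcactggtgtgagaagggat
Mitf (chr6:97991580-97991687, plus strand): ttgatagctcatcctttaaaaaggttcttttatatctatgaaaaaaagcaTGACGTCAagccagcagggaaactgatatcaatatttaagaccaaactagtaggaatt
The element was in 3.44% of all windowed genes, in 2.11% of those called higher beyond 0.5 and in 5.44% of those called lower. Further motifs were searched for in the same 3 sets, where N stands for any base. In that order, the E-box CACGTG was in 11.5%, 7.75% and 16.3%. The antioxidant response element core TGACNNNGC was in 16.8%, 18.3% and 23.8%. The heat shock element core GAANNTTC was in 6.89%, 9.86% and 12.2%.

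Genes of cholesterol synthesis and uptake were called lower in 15 of 25 and higher in 0, with a median of -0.291. The sterol response element TCACNCCAC lay in the windows of 1 of 17 of these genes (5.88%) and of 1.49% of all windowed genes. It was in 0.68% of the genes called lower beyond 0.5 and in 0% of those called higher. Insig1, which retains the sterol sensor in the endoplasmic reticulum, was at 206 and 203 CPM in untreated B16F0 and 154 and 148 CPM with SX-682, and at 126 and 127 CPM in untreated B16F10 and 36.3 and 40.2 CPM with SX-682, a difference of -1.29 (SE 0.05, adjusted p = 3.33e-18). Hsd17b7 (-0.74), Stard4 (-0.70), Lss (-0.67) and Srebf2 (-0.40), the factor that drives the pathway, were also called lower. The gap between the lines was smaller with SX-682 in 4 of the 25 (16%), with a median of 0.443 untreated and 0.822 treated. In the list of LXR targets and fatty acid synthesis, 4 of 14 tested were called higher and 7 lower. Its differences ranged from -0.439 to 1.51, with a median of -0.135. Abca1, which exports cholesterol, was at 11.1 and 10.8 CPM in untreated B16F0 and 9.58 and 10.6 CPM with SX-682, and at 25.9 and 26.4 CPM in untreated B16F10 and 68.3 and 68.4 CPM with SX-682. The difference was 1.51 (SE 0.085, adjusted p = 1.88e-14), and Mylip, an LXR target, differed by 0.55 (SE 0.067).

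**Figure D5:**
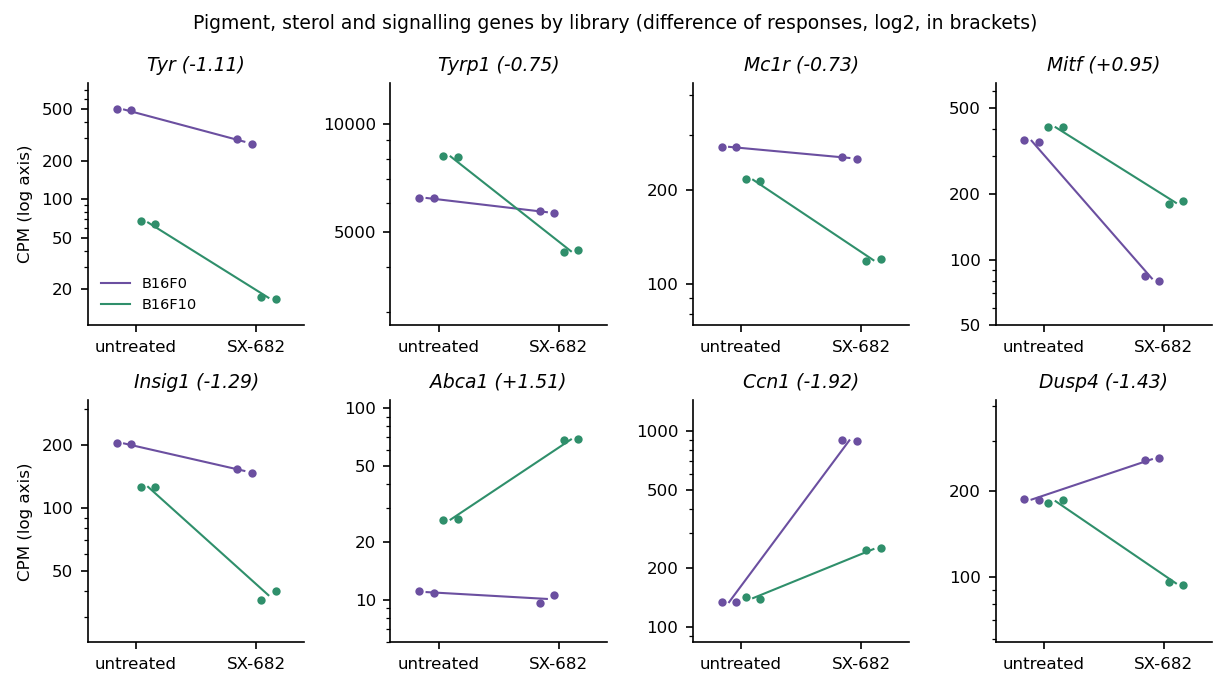
Levels of 8 pigment, sterol and signalling genes in the 8 libraries (CPM on a log axis), untreated and with SX-682; points are libraries, lines join the group means, and the number after each symbol is the difference of responses (log2). Dusp4 is lower in the treated than the untreated B16F10 libraries, where those of B16F0 are higher, Abca1 is higher in treated B16F10 only, and Ccn1 parts from equal untreated levels.

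Feedback genes of the MAPK pathway, which report its output, were called lower in 8 of 16 tested and higher in 2. Dusp4, a phosphatase of ERK (chromosome 8, 34807297 to 34819894, plus strand), was at 188 and 186 CPM in untreated B16F0 and 257 and 262 CPM with SX-682, and at 182 and 187 CPM in untreated B16F10 and 95.7 and 93.7 CPM with SX-682. From equal untreated levels the lines moved apart, with a difference of -1.43 (SE 0.039, adjusted p = 9.05e-22). Dusp2 differed by -1.38 (SE 0.12), Spry4 by -1.29 (SE 0.26) and Dusp1 by -0.99 (SE 0.089). In the AP-1 and immediate early list, 8 of 24 were called higher and 10 lower. Fos was at 4.07 and 3.38 CPM in untreated B16F0 and 5.2 and 5.2 CPM with SX-682, and at 9.83 and 11.3 CPM in untreated B16F10 and 2.53 and 2.97 CPM with SX-682. Again the directions were opposite, and the difference was -2.42 (SE 0.18, adjusted p = 9.12e-12). The Krueppel-like factors Klf4 (1.01, SE 0.19), Klf2 (1.11, SE 0.34) and Klf10 (0.79, SE 0.069) were called higher, and Egr1 (-0.69), Nr4a1 (-0.89) and Jun (-0.53) lower. Klf2 was no longer called without replicate 1 of any of the 4 groups (lowest difference 0.83).

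A list of TGF-beta and YAP pathway genes held ligands, receptors and factors of the pathways as well as targets. Of its 21 members, 14 were called lower and 4 higher. The 14 became 11 in DESeq2 and 11 with library totals only. Ccn1, a secreted matrix protein and YAP target (chromosome 3, 145646976 to 145649981, minus strand), was at 134 and 133 CPM in untreated B16F0 and 896 and 893 CPM with SX-682, and at 141 and 139 CPM in untreated B16F10 and 247 and 251 CPM with SX-682. The untreated lines were alike, and the treated B16F0 libraries stood far above the rest, a difference of -1.92 (SE 0.034, adjusted p = 2.2e-26). Ccn2, its relative, differed by -1.77 (SE 0.12) with changes in opposite directions, and 23.2% of its exonic bases overlap a gene on the opposite strand. Id1, a BMP target, differed by -0.96 (SE 0.12), while Id3, a further BMP target, differed by 0.87 (SE 0.06). Ankrd1 (-4.09, SE 1.25) had 0.147 CPM or less in each B16F0 library. In the matrix and adhesion list, 14 of 33 tested were called lower and 5 higher. The 14 became 8 without replicate 2 of untreated B16F10, 9 without replicate 2 of B16F10 with SX-682 and 8 with library totals only. Thbs1, thrombospondin, differed by -1.23 (SE 0.14) and the integrin Itga4 by -1.06 (SE 0.049). Col6a1 (-1.10, SE 0.42) had at most 0.301 CPM in B16F0 and was no longer called in 7 of the 8 fits that left out 1 library, with -0.67 (adjusted p = 0.294) without replicate 1 of untreated B16F0.

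In the list of 31 chemokines, cytokines and receptors, 21 genes were tested. Of these, 5 were called higher and 4 lower, against 16.5% and 18.5% of all genes tested. Cxcl1, a ligand of CXCR2, was at 12.2 and 12.2 CPM in untreated B16F0 and 40.0 and 39.6 CPM with SX-682, and at 77.0 and 79.0 CPM in untreated B16F10 and 127 and 122 CPM with SX-682. The ratio of treated to untreated libraries was smaller in B16F10, with a difference of -1.03 (SE 0.061, adjusted p = 4.77e-14). Vegfa, the vascular growth factor, was at 70.3 and 64.7 CPM in untreated B16F0 and 52.3 and 47.5 CPM with SX-682, and at 29.4 and 30.3 CPM in untreated B16F10 and 46.5 and 43.9 CPM with SX-682. The directions were opposite and the lines ended close together, a difference of 1.03 (SE 0.071, adjusted p = 1.18e-12). Angptl6 differed by 1.51 (SE 0.17), with 16.8% of its exonic bases overlapping a gene on the opposite strand, and Csf1 by -0.75 (SE 0.043). Ccl2 was at 209 to 386 CPM in B16F10 but at most 0.161 CPM in B16F0. Its difference of -2.14 (SE 0.79) was -0.65 and not called without replicate 2 of B16F0 with SX-682 (adjusted p = 0.765), and it was not called without replicate 1 of untreated B16F0 either (-1.80). With a group at or under the floor, such a fitted difference depends on the prior count and is no bound.

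Stem cell, lineage and pigment factors, with relatives of Tfcp2l1, made up a further list of 14 genes, of which 10 had enough counts for the test. Mitf and Klf4 were called higher, and Tyr, Hmga2 and Myc lower. Hmga2, a chromatin factor, was at 61.1 and 63.3 CPM in untreated B16F0 and 57.8 and 53.4 CPM with SX-682, and at 100 and 102 CPM in untreated B16F10 and 44.1 and 46.4 CPM with SX-682, a difference of -1.005 (SE 0.058, adjusted p = 3.5e-14). Tfcp2l1, a factor of the pluripotency network, had 6 and 7 counts in untreated B16F0, 30 and 18 with SX-682, 0 and 1 in untreated B16F10 and 22 and 15 with SX-682. With untreated B16F10 at the floor of 3 counts or less, its difference of 2.78 (SE 1.78, adjusted p = 0.113) was not called. Its relatives Tfcp2 (0.10) and Ubp1 (-0.019) and the receptor Notch1 (-0.12, SE 0.067) were not called either. Nanog and Esrrb had at most 6 counts in any library, and Sox2 and Foxd3 had 0 in all 8.

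Some genes with large changes in both lines had responses that could hardly be told apart between the lines. Apold1 went from 153 and 156 to 31.5 and 30.7 CPM in B16F0 and from 312 and 318 to 66.9 and 68.3 CPM in B16F10, with a difference of 0.09 (SE 0.046). Nr1d1, a repressor of the circadian clock, went from 12.9 and 12.4 to 87.5 and 86.0 CPM in B16F0 and from 13.1 and 13.7 to 86.8 and 94.5 CPM in B16F10, with a difference of -0.02 (SE 0.074). Ppp1r10 (-0.045) and Tuba4a (0.071) were alike too, and 37.3% of the exonic bases of Tuba4a overlap a gene on the opposite strand. For each of these, as for Bbc3 and Srsf1, the 95% interval of the difference was within 0.25 on either side of 0.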

How the data were processed

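RNA-seq libraries were compared between B16F10 and B16F0 cells with and without SX-682, with 2 libraries in each of 4 groups. The authors deposited whole-number read counts per gene for 34513 mouse genes, with feature lengths (other values, used only to rank genes) and GRCm38 coordinates, and without normalization. Per the labels, cutadapt, STAR and DESeq2 were used with build mm10, in roles the notes do not give; strand use in counting and the annotation are not given in the sources used here. All 112 named genes had the same coordinates in GENCODE M21. The 8 B16 columns were fitted with edgeR 4.0.16 in R 4.3.3 (group means, TMM scaling, filterByExpr, quasi-likelihood F-test of the interaction contrast, Benjamini-Hochberg adjustment at 0.05), and glmTreat tested differences beyond 0.5. Standard errors came from the fitted covariance matrix. The residual degrees of freedom were 4 and the prior ones 24.23. Permuting treatment labels within lines in all 36 ways cannot give a 2-sided exact p under 0.0556, so calls rest on spread shared across genes. CPM are TMM-scaled. Intervals, like the p-values, rest on the spread between these libraries. Floors of 3 counts cover counting error only, as no molecular identifiers are described. Of the genes called beyond 0.5, 22 had a group at that floor. The fit was tested on counts simulated with its own estimate of spread. It called 86 of 100 genes given a difference of 0.5 and 99 of 100 given 1. Of 15623 unchanged genes it called 6. The test beyond 0.5 called 0, 93 and 1 of these sets. Spread between separate cultures was not simulated.

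Named genes were the 12 largest differences in each direction beyond 0.5 (mean log2 CPM of at least 1, lines not overlapping, no predicted models), 6 with opposite changes, for each of 33 lists the 3 called members with the largest difference of at least 0.5, the genes the study measured, and 6 genes with like responses; others of a list are named where its description needs them, and some genes are not reported here. Members and lists were chosen with earlier results of these data known. Alternatives were DESeq2 1.42.0, limma 3.58.1 (voom), scaling by RLE or by library totals, the fit without a filter or only on genes with 10 counts or more in all libraries, all 12 libraries, the replicate number as a block, a threshold of 0.01, removal of the 50 highest genes, and each library left out. The labels number replicates alike in each group, and deviations of same-numbered libraries correlated by 0.049 in B16F0 and -0.0133 in B16F10. The Melan-A libraries were used only in the 12-library alternative.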

Additional observations from a re-analysis of the deposited data

Results flagged for a closer look

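Each result here was marked because the effect of SX-682 differed between B16F10 and B16F0 in the test of the difference itself, which is also the comparison of the report, so the marks add no evidence. They comprised 5651 genes called in all, 2666 higher and 2985 lower, and 388 genes called beyond 0.5, of which 196 were higher and 192 lower. With 2 libraries in a group, single libraries that stand apart were not searched for.

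Named genes called higher are given with the difference of responses (log2) of each. The largest were those of Dhrs3 (3.249), Tmem117 (3.066), Nupr1 (3.056), Mt2 (2.843), Trib3 (2.32), Chac1 (2.317), Ddah2 (2.097) and mt-Atp8 (2.017). They were followed by Cabp1 (1.978), Hspa1b (1.903), Neat1 (1.829), Slc16a6 (1.796), Col15a1 (1.729), Ltbp1 (1.539), Angptl6 (1.511) and Abca1 (1.509). Next came mt-Atp6 (1.453), Kazald1 (1.435), Pycr1 (1.427), Slc1a4 (1.303), Bmf (1.204), Klf2 (1.107), Psmb9 (1.056) and Vegfa (1.032). Smaller ones were those of mt-Nd1 (1.027), Klf4 (1.007), Asns (0.9965), Egln3 (0.9718), Ifit1 (0.9601), Mitf (0.9534), Pck2 (0.9516) and Cdc25c (0.9196). Further down were Rora (0.9124), Sox9 (0.8819), Slc6a9 (0.8571), Hspb1 (0.8531), Arntl (0.833), Bok (0.8193), H2-T23 (0.7727) and Herpud1 (0.7413). The smallest were those of Ccnb2 (0.6818), Bcl2l11 (0.6503), Bnip3 (0.5993), Cdc25b (0.5877), Dnajb1 (0.5652) and Mylip (0.5536).

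Named genes called lower are given in the same way. The largest were those of Fos (-2.422), Ccl2 (-2.135), Thsd7a (-1.985), Ccn1 (-1.915), Ccn2 (-1.765), Per2 (-1.671), Col10a1 (-1.619) and Dtx4 (-1.59). They were followed by Gpc6 (-1.462), Dusp4 (-1.433), Pcdh17 (-1.428), Dusp2 (-1.384), Adam12 (-1.358), Insig1 (-1.291) and Spry4 (-1.288). Next came Plk2 (-1.255), Thbs1 (-1.23), Rps10 (-1.152), Eda2r (-1.137), Tyr (-1.11), Col6a1 (-1.099), E2f2 (-1.095) and Itga4 (-1.056). Smaller ones were those of Cxcl1 (-1.028), Hmga2 (-1.005), Cdc6 (-0.9826), Id1 (-0.9633), Nlrc5 (-0.8566), Mat2a (-0.8534), Tra2a (-0.813) and Rrs1 (-0.8051). Further down were Tyrp1 (-0.7452), Hsd17b7 (-0.7414), Slc7a6 (-0.735), Mc1r (-0.7339), Polr1a (-0.7176), Utp20 (-0.7064), Aen (-0.6895) and Dnmt3b (-0.6839). The order went on with Rrm2 (-0.6676), Rptor (-0.6517), Rars (-0.6268), Gbp2 (-0.5886), Cxcl10 (-0.5714), Srm (-0.5562) and Srsf5 (-0.5513). The smallest was that of Myc (-0.3904). Of all these, Ccl2, Col6a1, Dnmt3b, Dtx4, H2-T23, Klf2 and mt-Atp8 were not called when 1 library was left out.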

How the results depend on the processing

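Among the 112 genes named by the selection rules, no called gene changed direction under any alternative run. Other genes given in the text were not followed singly through the alternatives. Differences near 0 that were not called did change sign, between -0.125 and 0.0409 for Bbc3, -0.0766 and 0.0415 for Nr1d1, -0.0844 and 0.00864 for Ppp1r10, -0.0314 and 0.0279 for Srsf1 and -0.0384 and 0.028 for Ubp1. The 5651 genes called became 4921 with DESeq2, 5524 with limma-voom, 5610 with RLE scaling, 5754 with library totals only, 5363 without a filter, 5619 with at least 10 counts required, 5551 with all 12 libraries, 5608 without the 50 highest genes and 4193 at a threshold of 0.01. Of the DESeq2 calls 4910 were also called by edgeR. The 388 genes called beyond 0.5 became 210 with DESeq2 (99 higher, 111 lower) and 241 with limma-voom (115 higher, 126 lower), and between 275 and 422 under the other settings; the cause was not tested. Library totals only moved the median difference of all genes to 0.0504, and the share of calls that were higher from 47.2% to 57.9%, so that higher calls outnumbered lower ones. Among lists, the heat shock genes called lower fell from 7 to 3 with library totals only, the glycolysis genes called higher from 13 to 8 without the 50 highest genes, and the chemokine and cytokine genes called higher from 5 to 3 in DESeq2, while the interferon genes called higher went from 6 to 10 with all 12 libraries, and with library totals only the replication and mTOR genes called higher each from 3 to 5.

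Leaving out 1 library at a time gave 4774 to 5534 genes called (2296 to 2816 higher, 2478 to 2718 lower) and 318 to 418 beyond 0.5 (168 to 220 higher, 148 to 198 lower); the lone library of a group is then assumed to vary like the others. H2-T23 (0.77) was not called when any 1 of 4 libraries was left out, and differed by 0.49 (adjusted p = 0.217) without replicate 1 of untreated B16F0. In DESeq2 mt-Atp6 was not called (adjusted p = 0.0545). Sox10 was called without replicate 2 of B16F0 with SX-682 (0.08), and Apold1 (0.14) and Tfcp2 (0.15) with library totals only.

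The replicate numbers were not shown to pair the libraries. A block for replicate number gave 5713 calls and 397 beyond 0.5, and changed no call among the genes named by the selection rules. Depth limits genes near the floor of 3 counts, CXCR1 and CXCR2 among them.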

Other observations

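Each further list held genes called in both directions. Glycolysis and hypoxia genes leaned higher (median 0.095), and autophagy and lysosome genes leaned lower (median -0.154). Of 29 interferon-stimulated genes tested, 6 were called higher and 3 lower, against 16.5% and 18.5% of all genes tested. Ifit1, an antiviral effector, was at 5.02 and 5.15 CPM in untreated B16F0 and 7.04 and 6.85 CPM with SX-682, and at 1.64 and 1.53 CPM in untreated B16F10 and 4.31 and 4.12 CPM with SX-682, a difference of 0.96 (SE 0.19). Gbp2 (-0.59) and Cxcl10 (-0.57) were among those called lower. Of 17 genes of MHC class I presentation, 6 were called higher, among them H2-K1 (0.41) and the immunoproteasome subunit Psmb9 (1.06, SE 0.27), and 4 lower, among them the transactivator Nlrc5 (-0.86) and Tapbp (-0.45).

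In glycolysis and the response to hypoxia, 13 of 30 were called higher and 5 lower. Egln3, an oxygen-sensing hydroxylase, was at 26.7 and 25.4 CPM in untreated B16F0 and 12.3 and 12.4 CPM with SX-682, and at 10 and 10 CPM in untreated B16F10 and 9.5 and 9.08 CPM with SX-682. Only the untreated B16F0 libraries were high, and the difference was 0.97 (SE 0.10). Bnip3, a mitophagy receptor, differed by 0.60, with 22.3% of its exonic bases overlapping a gene on the opposite strand. Of 18 clock genes tested, 6 were called higher, among them Rora (0.91), Arntl (0.83) and Bhlhe40 (0.65). The 5 called lower (3 without replicate 1 of untreated B16F0) included Per2 (-1.67, SE 0.37) and Per1 (-0.67). Of 23 autophagy and lysosome genes, 12 were called lower and 5 higher, among the former Neu1 (-0.43) and Ctsd (-0.30). Of 14 genes of the mTOR pathway, 6 were called lower and 3 higher (1 without replicate 2 of untreated B16F10), with Rptor, the scaffold of mTORC1, the furthest at -0.65 (SE 0.05).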
